A study of Mus musculus with 5 samples.

Results

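The liver breaks down most surplus amino acids, and 40 genes for enzymes of that work are described here in mouse liver tumours with and without overexpression of the transcription factor Prox1. The 40 were listed by symbol in 9 groups by substrate: phenylalanine and tyrosine, tryptophan, histidine, methionine and homocysteine, serine and glycine, the alanine, aspartate and glyoxylate transaminases, proline with ornithine and lysine, pyrimidine with beta-alanine, and cysteine to taurine. All 40 were found among the 55397 genes of the expression table, on 17 chromosomes, and the fewest reads of any of them in any library was 227. The tumours were raised in female C57BL/6N mice, injected at 8 weeks of age through the tail vein with Sleeping Beauty plasmids that carry Akt and the Notch intracellular domain (NICD) under the EF1a promoter. The Control group (n = 2) also received the empty vector pT3-Tre-IRES-GFP, and the Prox1 OE group (n = 3) received pT3-Tre-FLAG-mmProx1-IRES-GFP. Akt, NICD, the rtTA activator, GFP and doxycycline, given from day 21, were thus common to both groups, and the labels call the material transformed hepatocytes. The labels give collection after a week of induction or at the humane endpoint without saying which for each library, and the study refers to mice at the endpoint. Nothing in the labels says that each library came from its own animal, so p-values below measure the spread between these libraries.

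In a hepatocyte, catabolism of an amino acid usually starts with loss of its amino group to a transaminase or a lyase, and the carbon skeleton then passes through a short pathway to pyruvate, ketone body precursors or an intermediate of the citric acid cycle. Many of these enzymes are far more abundant in liver than elsewhere, and several, such as tyrosine aminotransferase and serine dehydratase, are classical targets of glucocorticoid and glucagon signalling in fasting. Methionine is a special case: it is first converted to S-adenosylmethionine, the methyl donor of the cell, by Mat1a in mature hepatocytes or by Mat2a in most other and in dividing cells.

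RNA was sequenced as paired reads from libraries that keep strand, and 48740863 to 56629477 reads per library were assigned to genes. Values are normalised counts, reads divided by the size factor of the library, in which a single read was worth 0.822 to 1.18. Where a gene is given as one set of values against another, the first set is Control 1 and 2 and the other Prox1 OE 1, 2 and 3, in that order. Prox1 itself had 4153 and 4664 normalised counts in Control 1 and 2 and 48089.8, 11113 and 8231 in Prox1 OE 1, 2 and 3. It was higher in every Prox1 OE library, but Prox1 OE 1 stood far above the other two, and the difference (log2 fold change 1.90 ± 0.66, SE) missed the threshold (limma, adjusted p = 0.0607) and passed it in 4 of 16 alternative settings, edgeR (adjusted p = 0.0465) among them and DESeq2 (adjusted p = 0.0729) not. The transgene and the endogenous gene cannot be told apart in this sum. The 10 reference genes of hepatocytes described below summed to between 1437431 and 2060356 in Control and between 4048121 and 5537860 in Prox1 OE.

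The promoters of Hal and Mat2a are shown first, as the genes with the highest and the lowest log2 fold change of the 40 in the limma fit of all libraries. Hal (ENSMUSG00000020017, chr10:93488768-93519304, + strand) encodes histidine ammonia-lyase. Mat2a (ENSMUSG00000053907, chr6:72432799-72439558, − strand) encodes the extrahepatic methionine adenosyltransferase. Each sequence is the 250 bases before the RefSeq transcription start on the GRCm38.p6 assembly (mm10), 5′ to 3′ on the strand of the gene, with matches to the letters TATAAA or their reverse complement TTTATA in capitals.
Hal, chr10:93488518-93488767: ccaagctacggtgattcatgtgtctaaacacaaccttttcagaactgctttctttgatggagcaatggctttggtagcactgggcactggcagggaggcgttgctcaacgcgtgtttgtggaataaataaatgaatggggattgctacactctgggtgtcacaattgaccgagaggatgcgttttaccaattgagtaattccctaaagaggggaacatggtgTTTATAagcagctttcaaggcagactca
Mat2a, chr6:72439557-72439806: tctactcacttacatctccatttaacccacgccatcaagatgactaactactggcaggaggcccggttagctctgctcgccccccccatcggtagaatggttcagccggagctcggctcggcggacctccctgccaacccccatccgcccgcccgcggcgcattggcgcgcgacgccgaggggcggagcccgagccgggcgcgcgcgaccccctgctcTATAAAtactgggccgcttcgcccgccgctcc
The match began 28 bases before the start in Hal and 32 in Mat2a. The GENCODE start of Hal was the same base, and that of Mat2a lay 2 bases upstream of the RefSeq one, so the last 2 bases of its window are exonic by GENCODE. The window of Hal had 45.6% G or C and a ratio of observed to expected CpG of 0.476, and that of Mat2a had 67.6% and 1.06. Promoter windows of 300 bases (250 before and 50 after the start) were found for 32 of the 40 genes, 34 windows in all. Their median GC content was 55.7%, against 52.7% for 32851 windows genome wide. TATAAA on either strand was in 8 of the 34 windows (23.5%, with an overlapping pair of Agxt2, the genes Agxt2, Ftcd, Hal, Hgd, Mat2a, Pcbd1 and Tdo2) and in 13.6% of all windows. CAAAGTCCA, a core sequence of HNF4 sites, was in 2 windows (5.88%), which overlap and are both of Agxt2, so that 1 gene of the 32 held it, and in 0.475% of all. GTTAATNAT, a core sequence of HNF1 sites, was in 1 window each of Pcbd1 and Prodh2 (5.88%) and in 0.801% of all. The letters TTGCNNCAA (C/EBP, 2.08% of all windows) and TGACGTCA (CREB, 1.79%) were in none of the 34.

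The question of the comparison was what Prox1 does to the tumours once they have formed. Almost the whole set of enzymes was higher with Prox1. Of the 40 genes, 36 were higher in Prox1 OE and 1, Mat2a, was lower (limma on log2(normalised count + 1), adjusted p under 0.05), where 17.1% of 17105 genes tested were called higher and 16.2% lower. Cbs, Sdsl and Afmid were not called. The log2 fold change was over 2 in 10 of the 36, between 1 and 2 in 24 and below 1 in Oat and Amt, and the median of the 40 was 1.62 beside −0.02 for all genes tested. The 2 groups did not overlap in 39 of the 40, all but Cbs, against 63.3% of all genes. Together the 40 enzymes took 0.532 and 0.691% of the reads in Control 1 and 2 and 1.16, 1.15 and 1.49% in Prox1 OE 1, 2 and 3. In bulk tissue, more cells that express these enzymes and more of their RNA per cell cannot be told apart. Calls by edgeR and DESeq2 on the recovered reads covered 36 and 38 of the 40, where edgeR called 18% of all genes higher and 15.7% lower and DESeq2 19.4% and 18%. The number depended on Control 1. Without it, which leaves a lone Control library, 20 of the 40 were called, all higher, beside 3.98% of all genes called higher, and all 36 rises kept their sign. The 17 calls lost were those of Tat, Hpd, Kynu, Amdhd1, Mat1a, Mat2a, Ahcy, Bhmt, Sds, Amt, Agxt, Got1, Prodh2, Oat, Aass, Dpys and Cdo1. With all libraries, 37 genes were called, and 20 of these were called under all 16 alternative settings.

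**Figure D1:**
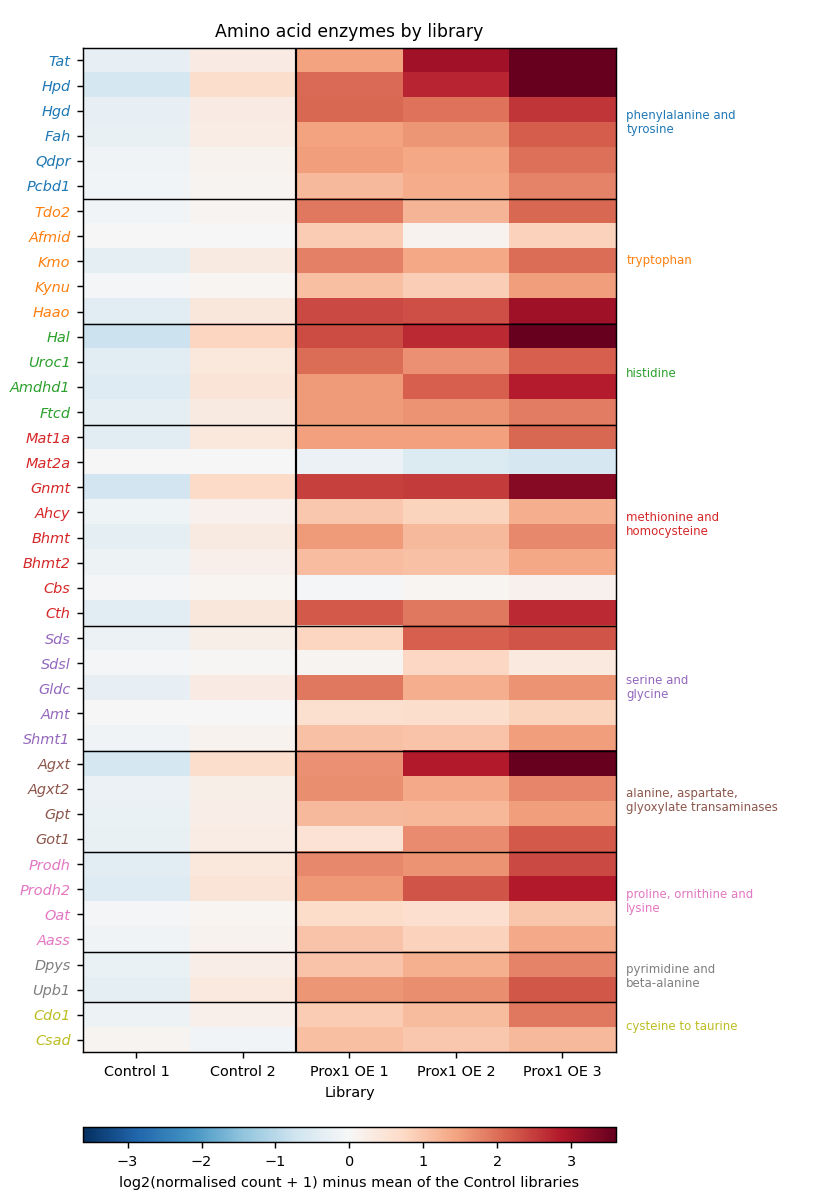
Level of each of the 40 enzyme genes (rows, grouped by substrate) in each library (columns), as log2(normalised count + 1) minus the mean of the Control libraries. Median over the 40 genes is −0.26 and 0.26 in Control 1 and 2 and 1.47, 1.38 and 1.95 in Prox1 OE 1, 2 and 3, with Prox1 OE 3 the darkest column and Mat2a, Cbs and Sdsl the palest rows.

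All 6 genes of phenylalanine and tyrosine catabolism rose, with a median log2 fold change of 1.97 and adjusted p-values between 0.00242 and 0.0121 (limma). Tat, tyrosine aminotransferase, which takes the first and rate-limiting step from tyrosine, had 3744 and 5723 normalised counts in Control and 12552, 37573 and 59699 in Prox1 OE (log2 fold change 2.72 ± 0.58, SE). Hpd, the dioxygenase that makes homogentisate from the product of Tat, had 2477 and 6058 against 15855, 25902 and 48534 (2.81 ± 0.50). For both, Prox1 OE 3 was highest and Prox1 OE 1 lowest of the 3, so the spread within the group was wide although no library overlapped. Hgd, which opens the ring of homogentisate, had 3815 and 5848 in Control and 19747, 18408 and 28331 in Prox1 OE (2.20 ± 0.24). Fah, fumarylacetoacetase, the last enzyme of the pathway, whose loss causes tyrosinaemia, had 5831 and 8559.6 against 19340.4, 21206 and 31932 (1.74 ± 0.25). These downstream genes were closer to each other across the 3 Prox1 OE libraries than Tat and Hpd were. Qdpr and Pcbd1 recycle the tetrahydrobiopterin cofactor of the aromatic amino acid hydroxylases. Qdpr had 4932 and 5987 against 15434, 14246 and 21595 (1.63 ± 0.20), and Pcbd1 had 6142 and 6957 against 14625, 16482 and 22481 (1.43 ± 0.19). The call of Tat was also lost without Prox1 OE 2.

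Of the 5 genes of the kynurenine pathway from tryptophan, 4 rose (adjusted p 0.00245 to 0.0045, limma; median log2 fold change of the 5, 1.72). Tdo2, the dioxygenase that commits tryptophan to the pathway in liver, had 7644 and 8856 normalised counts in Control and 30565, 19206 and 34239 in Prox1 OE (log2 fold change 1.72 ± 0.24, SE). Kmo, kynurenine monooxygenase, had 2891 and 4444 against 12640, 9454 and 14486 (1.74 ± 0.23), and Kynu, kynureninase, had 3108 and 3408 against 6886, 6019 and 9173 (1.15 ± 0.18). Haao, which makes the precursor of quinolinate and so leads to NAD, changed most, from 1798 and 3113 to 12328, 11892 and 19712 (2.59 ± 0.29). In each of the 5 genes Prox1 OE 2 was the lowest of its group, the reverse of Tat and Hpd, in which Prox1 OE 1 was lowest. Afmid, the formamidase that follows Tdo2, was the least expressed of the 40 for its length, with 251 and 243 in Control and 465, 268 and 441 in Prox1 OE. Its log2 fold change of 0.62 had a 95% interval of 0.01 to 1.22 and was not called (adjusted p = 0.103 by limma, 0.0499 by DESeq2). Of its exonic length 44.2% is shared on the same strand with Gm20708, listed at 0 in every library, so its level is uncertain. Without Prox1 OE 2 it was called higher.

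The 4 genes that take histidine to glutamate and a folate-bound carbon all rose, with a median log2 fold change of 2.05. Hal, histidine ammonia-lyase, whose promoter is printed above, had the highest log2 fold change of the 40 in this fit, from 274 and 793 normalised counts in Control to 2377, 3037 and 5874 in Prox1 OE (log2 fold change 2.90 ± 0.50, SE, adjusted p = 0.00581 by limma). Tat was above Hal by edgeR (2.97 and 2.83), by DESeq2 (2.95 and 2.82), without Control 1 (2.41 and 2.13), without Prox1 OE 1 (3.35 and 3.18) and in the ratio of group means (7.73 and 7.05). Control 2 had 2.89 times the count of Control 1, and still the lowest Prox1 OE library was 3 times Control 2. Uroc1, urocanase, the next enzyme, had 3239 and 5509.8 against 16956, 13159 and 18920.3 (1.94 ± 0.25). Amdhd1, the third enzyme, had 583 and 1092 against 2309.8, 3543 and 5662 (2.17 ± 0.39). It lies next to Hal, 4 kb away on chromosome 10. Ftcd, which hands the formimino group to folate, had 3875 and 6020.1 against 13973, 14864 and 17337 (1.67 ± 0.20). Prox1 OE 3 was the highest library for all 4.

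The methionine and homocysteine genes were the most divided group, with 6 of 8 higher, Mat2a lower and Cbs not called. Mat1a, the adenosyltransferase of mature hepatocytes, had 16790.4 and 28861 normalised counts in Control and 61291, 61525 and 92629 in Prox1 OE (log2 fold change 1.68 ± 0.29, SE, adjusted p = 0.00569, limma). Mat2a had 10598 and 10535 in Control and 9041, 7518 and 6988 in Prox1 OE (−0.44 ± 0.14, adjusted p = 0.0471). Each Prox1 OE library was below both Control libraries, but the call was held under only 6 of 16 alternative settings (edgeR, adjusted p = 0.062), and leaving out Control 1, Control 2, Prox1 OE 2 or Prox1 OE 3 each ended it. The exons of Mat2a share 508 bases with Particl on the opposite strand, which averaged 89.8 normalised counts. The ratio of Mat1a to Mat2a counts was 1.58 and 2.74 in Control and 6.78, 8.18 and 13.3 in Prox1 OE. The groups did not overlap, and the difference of 2.12 in the log2 ratio gave p = 0.1, the smallest the 10 splits of 2 and 3 libraries allow (exact permutation test, two-sided; 0.375 adjusted over 5 isozyme ratios).

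Gnmt, glycine N-methyltransferase, which uses up S-adenosylmethionine in hepatocytes, rose from 1719.5 and 4425 to 15116, 15724 and 26962 normalised counts (log2 fold change 2.75 ± 0.41, SE, adjusted p = 0.00379, limma). Ahcy, which cleaves the S-adenosylhomocysteine left by methyl transfer, changed less, from 8866 and 10789 to 19284, 17072 and 24354 (1.03 ± 0.18). Bhmt, the betaine-homocysteine methyltransferase, was the gene with the most counts of the 40, with 50805 and 79065 in Control and 182447, 142220 and 211163 in Prox1 OE (1.48 ± 0.28). Its neighbour Bhmt2, 17.8 kb away on chromosome 13, had 3869 and 4944 against 9509, 9062 and 11378 (1.18 ± 0.16). Both rose, and Bhmt exceeded Bhmt2 13.1 and 16 times in Control and 19.2, 15.7 and 18.6 times in Prox1 OE, and the log2 ratios overlapped (exact permutation p = 0.3).

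The transsulfuration enzymes, which carry homocysteine to cysteine, parted. Cth, cystathionine gamma-lyase, the second enzyme, had 931 and 1666 normalised counts in Control and 5746, 4653 and 8066 in Prox1 OE (log2 fold change 2.27 ± 0.29, SE, adjusted p = 0.00287, limma). Cbs, cystathionine beta-synthase, the first enzyme, had 23153 and 25384 in Control and 23032, 25424 and 26911 in Prox1 OE. Its log2 fold change was 0.05, with a 95% interval from −0.28 to 0.37, and it fell by 0.38 when libraries were scaled by their total reads (adjusted p = 0.0387, limma), a scaling that moved the median of all genes by −0.43. Cth counts were 0.0402 and 0.0657 of those of Cbs in Control and 0.25, 0.183 and 0.3 in Prox1 OE. The plot of the methionine genes shows this as a step in every gene but Mat2a and Cbs.

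**Figure D2:**
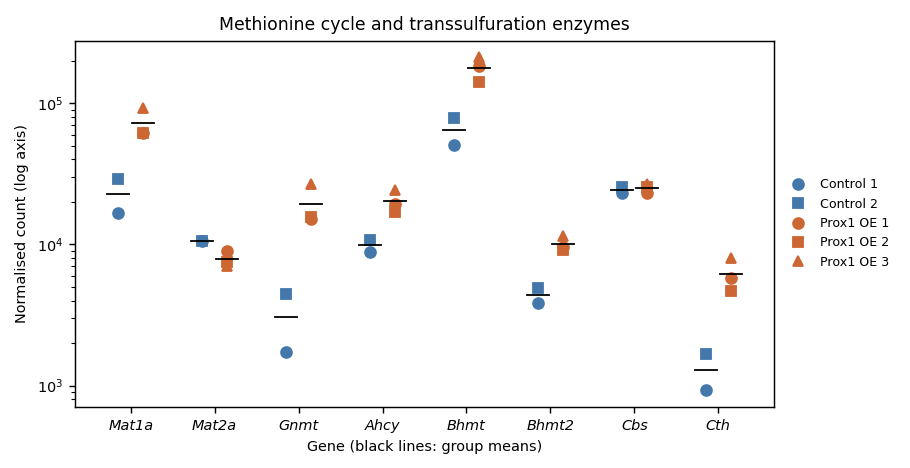
Normalised counts (log axis) of 8 methionine cycle and transsulfuration genes in each library, Control in blue, Prox1 OE in orange, with black lines for group means. Cbs lies between 23032 and 26911 in all 5 libraries, Mat2a is lower in each Prox1 OE library and the other 6 genes are higher.

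Serine and glycine genes rose in 4 of 5, with a median log2 fold change of 1.19. Sds, serine dehydratase, which turns serine into pyruvate, had 1814 and 2463 normalised counts in Control and 3594, 9437 and 10092 in Prox1 OE (log2 fold change 1.73 ± 0.42, SE, adjusted p = 0.0195, limma), a call lost without Control 1, Control 2 or Prox1 OE 2. Its adjacent homologue Sdsl, 3.7 kb away on chromosome 5, had 1068 and 1118 against 1163, 1818 and 1400.4. The log2 fold change of Sdsl was 0.39 with a 95% interval of −0.05 to 0.84 (adjusted p = 0.147), and it was −0.037 with scaling by total reads. Without Prox1 OE 1 it was called higher. Sds exceeded Sdsl 1.7 and 2.2 times in Control and 3.09, 5.19 and 7.2 times in Prox1 OE, without overlap (exact permutation p = 0.2). Plbd2 overlaps 21.3% of the exonic bases of Sds on the opposite strand, at a mean of 4549.7 normalised counts, and whether counting used the strand is not stated, so the level of Sds is uncertain. The glycine cleavage enzyme Gldc, the decarboxylase, had 2463 and 3737 against 11391, 7552 and 9373 (1.62 ± 0.23). It was the only one of the 36 risen genes that was highest in Prox1 OE 1. Its partner Amt, the aminomethyltransferase, rose less, by 0.67 ± 0.12 (adjusted p = 0.00683), a call held under 13 of 16 alternative settings and lost, among others, without either Control library. Shmt1, the cytosolic hydroxymethyltransferase that interconverts serine and glycine, had 3370.1 and 3966 against 7583, 7382 and 10322 (1.19 ± 0.17).

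The 4 transaminases of alanine, aspartate and glyoxylate all rose (median log2 fold change 1.53), Agxt and Got1 with a wide spread within Prox1 OE and Agxt2 and Gpt with a narrow one. Agxt, alanine-glyoxylate aminotransferase, which keeps glyoxylate from becoming oxalate, had 519 and 1231 normalised counts in Control and 2498, 5839.7 and 9667 in Prox1 OE (log2 fold change 2.70 ± 0.56, SE, adjusted p = 0.0113, limma), a call lost without Control 1 or Prox1 OE 2. Agxt2, the mitochondrial enzyme of the same name, had 2730.1 and 3636 against 10022, 8109 and 10741 (1.60 ± 0.17). The ratio of Agxt to Agxt2 was 0.19 and 0.339 in Control and 0.249, 0.72 and 0.9 in Prox1 OE, so Prox1 OE 1 lay among the Control libraries (exact permutation p = 0.3). Gpt, alanine aminotransferase, had 3633 and 5133 against 9702, 9849 and 12154 (1.28 ± 0.18). Got1, the cytosolic aspartate aminotransferase, had 1472 and 2122 against 2511, 5738 and 8132 (1.47 ± 0.44, adjusted p = 0.0395). Its lowest Prox1 OE library was only 1.18 times its higher Control library, and its call was held under 10 of 16 alternative settings. Leaving out Control 1, Control 2, Prox1 OE 2 or Prox1 OE 3 each ended it.

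The proline, ornithine and lysine genes rose in 4 of 4. Prodh, proline dehydrogenase, had 836 and 1430 normalised counts in Control and 3595, 3349.9 and 5681 in Prox1 OE (log2 fold change 1.90 ± 0.29, SE, adjusted p = 0.004, limma). Prodh2, which oxidises hydroxyproline and so feeds glyoxylate to Agxt, had 759 and 1419 against 3065, 5003 and 7533 (2.23 ± 0.39). The ratio of Prodh2 to Prodh was 0.908 and 0.992 in Control and 0.853, 1.49 and 1.33 in Prox1 OE, with overlap (exact permutation p = 0.4). Oat, ornithine aminotransferase, rose by 0.76 ± 0.15 (adjusted p = 0.00958), a call held under 13 of 16 alternative settings and lost, among others, without either Control library. Aass, which starts lysine breakdown, had 2374 and 2875 against 5356, 4647 and 6688 (1.07 ± 0.17).

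Dpys and Upb1 take reduced pyrimidines to beta-alanine. Dpys had 2015 and 2802 normalised counts in Control and 4889, 5819.6 and 8246 in Prox1 OE (log2 fold change 1.38 ± 0.24, SE, adjusted p = 0.00596, limma), and Upb1 had 1932 and 3121 against 7363, 7776 and 11531 (1.83 ± 0.26, adjusted p = 0.00332). Cdo1 and Csad make taurine from cysteine. Cdo1, cysteine dioxygenase, had 17135 and 22482 in Control and 36905, 43123 and 73869 in Prox1 OE (1.32 ± 0.30, adjusted p = 0.0149), a call lost without either Control library. Csad, the decarboxylase, had 9039.7 and 7888 against 17739, 16616 and 19028 (1.07 ± 0.13, adjusted p = 0.00261), and was, with Mat2a and Afmid, one of 3 genes of the 40 that were not higher in Control 2 than in Control 1. All 4 rose. Per kilobase of exon, Cdo1 and Bhmt were the most abundant of the 40 in both groups, with group means of 12049 and 11277 normalised counts per kb in Control and 31204 and 31019.5 in Prox1 OE, and Afmid was the least abundant (69.9 and 111).

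**Figure D3:**
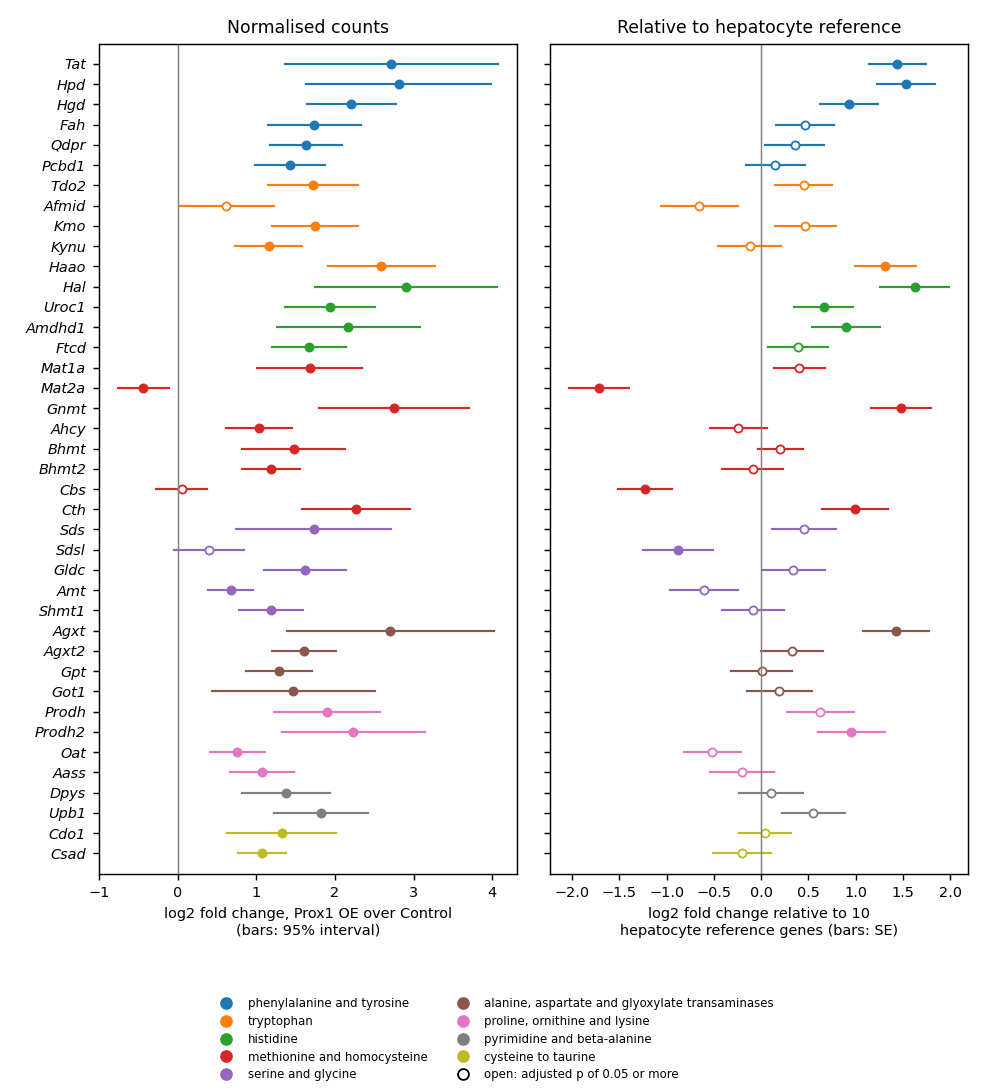
Log2 fold change of each of the 40 genes in Prox1 OE over Control, on the left from normalised counts with 95% intervals, on the right after subtracting the mean log2 level of 10 hepatocyte reference genes with SE. On the left 37 of 40 points are filled (adjusted p under 0.05) and lie right of 0 except Mat2a, and on the right 14 are filled, 11 of them right of 0.

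The enzymes were next set against general hepatocyte genes in the same libraries, since those rose as well. The reference list held Alb, Apoa2, Apoh, Ahsg, Fga, Fgb, Serpinc1, Trf, Ambp and Hpx, secreted plasma proteins of hepatocytes. Of the 10, 7 rose, Apoa2 (2.05 ± 0.35) and Serpinc1 (1.86 ± 0.24) the most on the log2 scale, with a list median of 1.24, and their mean log2 level was 1.27 higher in Prox1 OE. In each library this mean was subtracted from every gene. The groups then did not overlap in 23 of the 40 enzymes, 18 higher and 5 lower in Prox1 OE (Mat2a, Cbs, Sdsl, Amt and Oat), where 2.84% of all genes were higher and 82.8% lower without overlap. By limma 11 enzymes were called higher and 3 lower relative to the reference, where 1.26% of all genes were called higher and 73.4% lower. Of the 10 reference genes themselves, the same fit called 3 higher and 2 lower than their own mean. Calls among the enzymes therefore do not set them apart from other hepatocyte genes. The error of the reference is common to all genes, and limma pools the spread over genes. When each gene was tested in a linear model with only its own spread over the 5 libraries, 0 of the 40 and 0 of all genes had an adjusted p under 0.05, while at an unadjusted p under it 8 of the 40 were higher and 2 lower, beside 1.15% and 63.1% of all genes. With Control 1 left out, limma called 7 of the 40 higher and 2 lower, beside 0.672% and 39.3% of all genes.

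Of the 11 enzymes called higher than the reference by limma, Hal (1.62 ± 0.37), Hpd (1.53 ± 0.31), Gnmt (1.48 ± 0.32), Tat (1.44 ± 0.30), Agxt (1.43 ± 0.35) and Haao (1.31 ± 0.32) had relative log2 fold changes above 1, and Cth, Prodh2, Hgd, Amdhd1 and Uroc1 followed with 0.66 to 0.99. The 3 called lower were Mat2a (−1.71 ± 0.32), Cbs (−1.23 ± 0.29) and Sdsl (−0.88 ± 0.37). The other 26 lay between −0.66 and 0.63, and those nearest 0 were Gpt at 0.01 and Cdo1 at 0.04. The linear model with only the spread of each gene gave Hal, Gnmt, Haao, Cth and Hgd of the 11 an unadjusted p under 0.05. It was 0.0505 for Hpd, 0.0511 for Prodh2, 0.0593 for Amdhd1, 0.093 for Agxt, 0.0947 for Uroc1 and 0.112 for Tat. Fah, Ftcd and Upb1, not among the 11, were also higher at an unadjusted p under 0.05. Of the 3 called lower, Mat2a and Cbs passed and Sdsl (0.058) did not.

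The Prox1 OE libraries differed among themselves in a way that separated genes of this set. Prox1 OE 3 was highest in 36 of the 40, and Prox1 OE 1 was lowest of the 3 in 20 and Prox1 OE 2 in 19. Over the 17105 genes tested these counts were 4721, 6061 and 5576. Prox1 OE 2 over Prox1 OE 1 was 2.99 for Tat, 2.63 for Sds, 2.34 for Agxt and 2.29 for Got1, but 0.628 for Tdo2, 0.663 for Gldc and 0.576 for Afmid. Among 10 regulators of amino acid catabolism, Klf15, a transcription factor of the fasting response in liver, had 1273 and 1494 normalised counts in Control and 2188, 4651 and 6385 in Prox1 OE, and Cebpb, a C/EBP factor induced by hormones and inflammation, had 1659.6 and 1781 against 1678, 3772 and 4467. Both were lowest in Prox1 OE 1 among the 3, as Tat, Sds, Agxt and Got1 were. That order was shared by 6 of the 10 regulators and by 9 of the 10 hepatocyte reference genes, so it is not particular to these genes. Ppara, the fatty acid receptor of fasting, went the other way, with 1577, 725 and 971 in Prox1 OE. These genes were picked after their values were seen, and no test was made among the 3 libraries. Of the 10 regulators 4 rose in Prox1 OE: Gcgr, the glucagon receptor (1.85 ± 0.23), Klf15 (1.54 ± 0.39), Hnf4a (1.15 ± 0.16) and Cebpa (0.66 ± 0.17), and 0 fell, beside 17.1% of all genes higher and 16.2% lower. With scaling by total reads 3 were called higher and 1 lower, beside 8.62% and 39.9% of all genes. Relative to the hepatocyte reference 0 were called higher and 4 lower, beside 1.26% and 73.4% of all genes. Nr3c1, the glucocorticoid receptor, named for its role in this metabolism, had 2588 and 2701 in Control and 2569.5, 2064 and 2417 in Prox1 OE (log2 fold change −0.18, adjusted p = 0.325, limma), and with scaling by total reads it was the regulator called lower (−0.61).

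**Figure D4:**
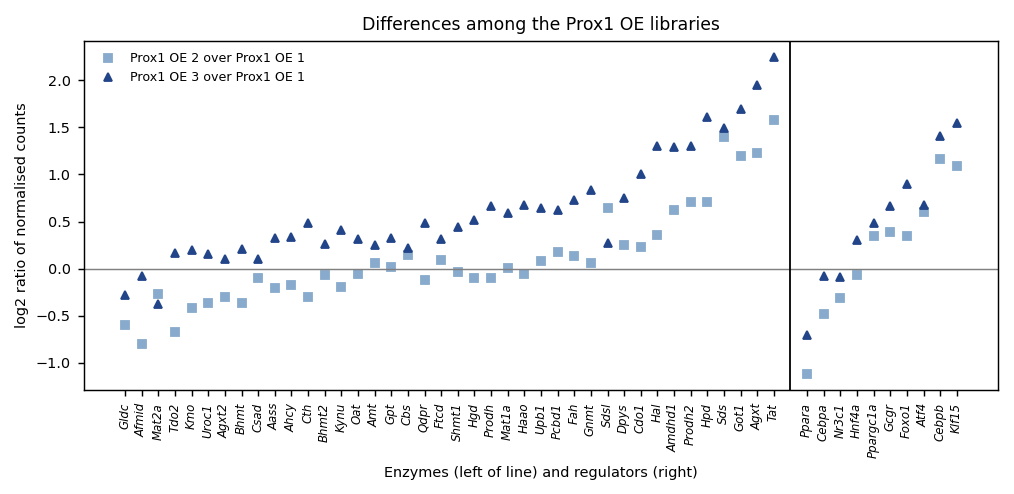
Log2 ratio of normalised counts of Prox1 OE 2 (squares) and Prox1 OE 3 (triangles) over Prox1 OE 1, for the 40 enzymes and 10 regulators, each ordered by the mean of the 2 ratios. Tat, Agxt, Got1 and Sds stand at the right end of the enzymes and Klf15 and Cebpb at the right end of the regulators, while Tdo2, Afmid and Gldc have squares below 0.

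Further genes of the same metabolism mostly rose with the 40, and genes of amino acid synthesis did not. The limma calls are to be read beside 17.1% of all genes tested called higher and 16.2% lower. Of 32 other catabolic genes 31 were tested, all but Dao, which averaged under 10 normalised counts, and 23 rose and 0 fell (limma), with a median log2 fold change of 1.23. The largest rises were Acmsd, which diverts the kynurenine pathway from NAD to full oxidation, with 74.8 and 191 against 439, 582 and 890 normalised counts (2.34 ± 0.43), and Ido2, a further tryptophan dioxygenase (2.21 ± 0.35). Of 22 genes of branched-chain amino acid breakdown 17 rose, led by Bckdha (1.49 ± 0.16), a subunit of the branched-chain keto acid dehydrogenase. The median of the 22 was 0.84, and Bcat1, the cytosolic transaminase found in many tumours and little in hepatocytes, fell from 87.1 and 119.5 to 9.2, 17.7 and 4.63 normalised counts (−3.33 ± 0.54, adjusted p = 0.00496). Of 10 synthesis genes, which include Bcat1 again and Gpt2 of the other catabolic genes, 5 fell and 1, Psph, rose (0.39 ± 0.13, adjusted p = 0.0494), with a median of −0.59. Psph was at −0.036 with scaling by total reads. Phgdh, which opens serine synthesis from glucose, had 3269 and 3251 in Control and 1752, 1752 and 1128 in Prox1 OE (−1.11 ± 0.20, adjusted p = 0.0072). Among 9 genes of methionine salvage and polyamine synthesis 2 rose, Adi1 (0.79 ± 0.13) and Mri1 (0.49 ± 0.13), and Amd1, which commits S-adenosylmethionine to polyamines, fell from 6389 and 6579.5 to 3055, 3069 and 3151 (−1.07 ± 0.10, adjusted p = 0.00221). The number of calls in this last list was near the share over all genes. With scaling by total reads, where 8.62% of all genes were called higher and 39.9% lower, the calls higher and lower were 21 and 3 of the 31 other catabolic genes, 11 and 2 of the 22 branched-chain genes, 0 and 7 of the 10 synthesis genes and 1 and 4 of the 9 salvage and polyamine genes. Relative to the hepatocyte reference, limma called 1.26% of all genes higher and 73.4% lower. The calls higher and lower were then 3 and 8 of the other catabolic genes and 0 and 4 of the branched-chain genes. They were 0 and 10 of the synthesis genes and 0 and 8 of the salvage and polyamine genes.

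**Figure D5:**
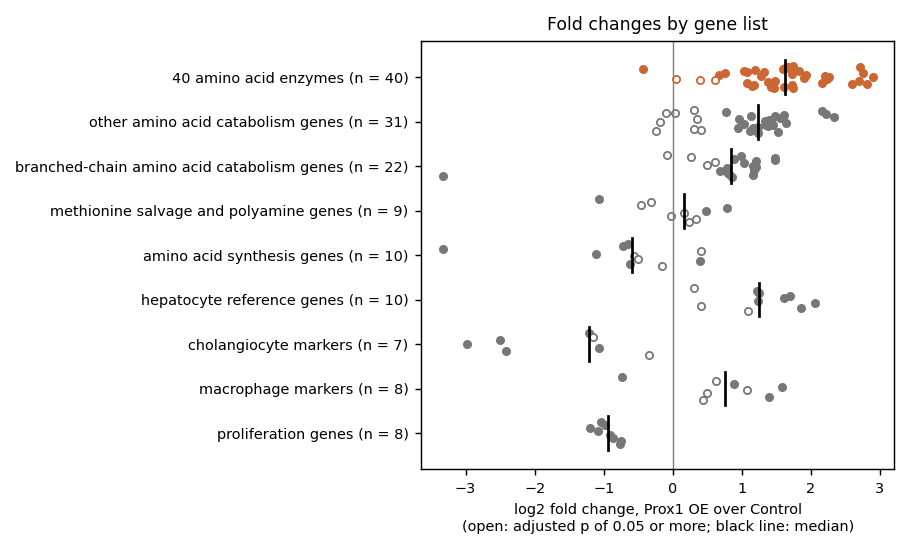
Log2 fold change in Prox1 OE over Control of every gene tested in 9 lists (rows), with filled points for an adjusted p under 0.05, open points otherwise and a black line at each median. Medians are 1.62 for the 40 enzymes, 1.23 for other catabolic genes, 0.84 for branched-chain genes, −0.59 for synthesis genes and 1.24 for hepatocyte reference genes.

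Markers of other cell types and of proliferation were counted beside the 17.1% of all genes called higher and 16.2% lower. Of 8 cholangiocyte markers 7 were tested and 5 fell (median log2 fold change −1.21), Cldn4 and Krt7 the most (−2.98 ± 0.61 and −2.50 ± 0.28), and the sum of the list was 745842 to 814909 normalised counts in Control and 519008 to 701552 in Prox1 OE, most of it Spp1 (509317 to 784749). All 8 proliferation genes fell (median −0.94), Bub1 (−1.21 ± 0.23) and Top2a (−1.09 ± 0.22) the most, and the sum was 32510.2 to 48625 and 17144 to 23052. Of 8 macrophage markers 3 rose, led by Clec4f (1.58 ± 0.36) and Cd5l (1.39 ± 0.20) of Kupffer cells, and Itgam fell (−0.73 ± 0.19), while 4 missed the threshold, with sums of 11615 to 13905 and 20947 to 30633. Of 6 endothelial markers 2 rose, Clec4g (2.61 ± 0.37) and Stab2 (1.04 ± 0.22), and 4 missed the threshold (median of the list 0.09), with sums of 7709.6 to 9943 and 9676 to 14007. Of 8 stellate cell and fibroblast markers 4 fell, Acta2 (−1.32 ± 0.23) and Col1a1 (−1.23 ± 0.17) the most, and Lrat rose (1.09 ± 0.17), with sums of 122527 to 126904 and 67955 to 80317. Within Control, the enzymes were higher in Control 2 in 37 of the 40, as were 9148 of the 17105 genes tested and all 10 reference genes, and all 8 proliferation genes were higher in Control 1. No defining marker of these lists was at 0 in any library. With scaling by total reads (8.62% of all genes higher and 39.9% lower), 2 endothelial markers were called higher and 3 lower, 1 stellate cell and fibroblast marker higher and 6 lower, 2 macrophage markers higher and 1 lower, and 6 cholangiocyte markers and 8 proliferation genes lower. The part of these shifts in the enzyme values was not tested.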

How the data were processed

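Bulk RNA-seq of 2 Control and 3 Prox1 OE Akt/NICD liver tumour libraries was used. The authors aligned reads with STAR to mm10, counted them per gene with a tool not given in the sources used here, and deposited a signal table of counts divided by DESeq2 size factors. Reads were recovered from its steps, and 100% of values came out whole within 0.001 reads. Of 55397 gene identifiers 99.5% matched GENCODE M21, and 0 columns lacked a sample. A second deposited table holds the authors' own comparison (mean, shrunken log2 fold change, p-values before and after weighting) and was not used.

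Genes with a mean of at least 10 normalised counts (17105) were tested with limma 3.58.1 (R 4.3.3) on log2(normalised count + 1), with an intensity trend, two-sided, Benjamini-Hochberg adjusted over all genes, threshold 0.05. Fold changes on this scale understate those of low genes. Isozyme ratios were compared with the exact permutation test. edgeR 4.0.16 and DESeq2 1.42.0 on recovered reads, other scalings, pseudocounts of 0.1 and 10, other filters, a replicate block and leaving out each library were alternatives, and the script was tested on simulated data. The 40 members, the lists and the tests were chosen with earlier results of these data known. Values in every library are given for called members with an absolute log2 fold change of at least 1, for calls against the common direction and for isozyme pairs, and of each further list the 2 largest changes in each direction are named, except 1 gene that is not reported here. Hnf4a, Cebpa, Cebpb, Ppara, Nr3c1, Spp1, Afmid and Cbs values were added after the values were seen. Promoter sequences are from RefSeq (GRCm38.p6).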

Additional observations from a re-analysis of the deposited data

How the results depend on the processing

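The rises were stable in direction and less so in their number. Of 640 fold changes of the 40 genes under 16 alternatives, 591 kept direction and side of the threshold, 41 lost the call, 3 gained it and 5 changed sign. The 5 were Cbs, at −0.38 with scaling by total reads, −0.0027 with the replicate block, and −0.018 and −0.0027 without Control 1 and Prox1 OE 3 (range of Cbs over libraries left out, −0.018 to 0.11), and Sdsl, at −0.037 with scaling by total reads. The number called lower, 1 (Mat2a), was 0 with TMM factors, with upper-quartile factors, without a filter, without the limma trend, with the replicate block and with edgeR, and 2 with scaling by total reads (Cbs and Mat2a), where the median of the 40 was 1.19 and that of all genes −0.44. That scaling called 8.62% of all genes higher and 39.9% lower, beside 34 and 2 of the 40. Leaving out a library gave 20 to 38 called, 20 to 37 higher and 0 to 1 lower, the highest number without Prox1 OE 1 (21.9% of all genes called higher and 21.9% lower) and the lowest without Control 1 (3.98% and 2.79%), where a lone Control library is assumed to vary like the Prox1 OE group. Relative to the hepatocyte reference genes the 14 calls (11 higher, 3 lower) became 9 to 15, 7 to 11 and 2 to 4 with a library left out, beside 0.672% to 1.11% of all genes higher and 39.3% to 76.4% lower. With Fga and Fgb removed from the reference, a choice made after seeing the data, they were 15, 9 higher and 6 lower, beside 0.818% and 82.5% of all genes. With the spread of each gene alone, also chosen after seeing the data, 0 were called, 0 higher and 0 lower. Scaling alternatives cannot change values relative to the reference and were not run for them.

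Replicate numbers are shared by the groups. Deviations of same-numbered libraries correlated at 0.14 and 0.02, over 2 pairs, so the numbers are not taken to pair libraries. The replicate block drops Prox1 OE 3. It left 36 of the 40 called, all higher (15.6% of all genes higher, 15% lower), lost Mat2a only, and gave 25 calls relative to the reference, 19 higher and 6 lower, beside 2.05% and 78.2% of all genes.

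Each of the 40 genes had at least 227 reads in every library. The exact permutation test of the isozyme ratios, over 2 and 3 libraries, cannot give a p under 0.1.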
